A study of Bos indicus with 8 samples.

Results

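Cyclic AMP is made by adenylyl cyclase downstream of G protein-coupled receptors such as the FSH receptor, and it releases the catalytic subunits of protein kinase A (PKA) from their regulatory subunits. PKA phosphorylates CREB family factors, which act at cAMP response elements, while phosphodiesterases degrade cAMP and A-kinase anchoring proteins (AKAPs) hold PKA at particular places in the cell. In cumulus cells, the somatic cells around the oocyte, FSH acts through this pathway, and cAMP shared through gap junctions takes part in holding the oocyte in meiotic arrest. Adenosine is a purine nucleoside with cell surface receptors, some of which raise and some of which lower adenylyl cyclase activity.

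The genes described here are 10 that respond to, carry or end the cAMP signal. They are the transcription factors CREM and CREB1, the kinase SIK1, the phosphodiesterases PDE4B, PDE4D and PDE10A, the G protein regulator RGS2, the PKA regulatory subunit PRKAR2B, the anchoring protein AKAP12 and the kinase SGK1. Their probes were all those whose symbol in the array platform's annotation was 1 of the 10, which found 14 of the 43794 probes, for 9 of 15229 gene symbols. No probe carried the symbol SIK1, so that gene was not analysed here. After a filter on dim spots 9 of the 14 probes were kept, and they measured 7 genes, against 31948 probes and 12320 genes in all. The single probes of PDE4D and AKAP12 did not pass.

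The cells were bovine, labelled Bos indicus, and came from slaughterhouse ovaries as complexes of oocyte and cumulus taken from follicles 3 to 6 mm wide. Both groups were cultured for 6 h with recombinant human FSH at 0.5 µg/ml, oestradiol at 1 µg/ml, 10% fetal bovine serum and 0.2 mM pyruvic acid, and the adenosine group differed by 3 mM adenosine in the medium. All control values are therefore those of FSH-stimulated cells, and no sample taken before culture was analysed here. There were 4 pools per group, with 10 per pool by the labels, which name no unit and no separate animals, so a p-value here reflects only how far these pools differed. Each adenosine pool shared 2 arrays, with the dyes exchanged, with the control pool of the same number.

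A spot counted as detected when its foreground was over the detection level, the mean of the array's negative spots plus 2 of their SDs. Detected probes made up 71.1% to 87.4% of all probes on 7 arrays. On the array of pair 3 with adenosine in Cy3 the share was 41.3% to 45.4%. The negative spots of that array, whose SD enters the detection level, had an SD of 15.1 in Cy3 and 11.1 in Cy5. On the other 7 arrays these SDs were 2.71 to 3.91 and 1.23 to 2.15. Its median intensities, 90.8 in Cy3 and 50.1 in Cy5, lay within the range of the other arrays of its orientation. All 10 markers of cumulus and granulosa cells were detected, among them FSHR, INHA and FST, and the log2 of their summed level was 15.08 to 15.59 in the adenosine pools and 15.47 to 15.80 in the control pools. That sum weighs the highest levels most, and INHBA had the highest mean level in both groups. In limma 1 of the 10, INHBA, fell with adenosine and 5 rose. Markers of other cell types passed the filter in part, with 1 of 3 for theca (INSL3), 2 of 4 for endothelium (VWF and TEK) and 6 of 8 for immune and blood cells, among them PTPRC and CD68. TYROBP and PECAM1, markers of myeloid and endothelial cells, were detected on no array. Of the 12 oocyte markers 9 passed, and the log2 of the summed level of all 12 was 11.36 in control pool 2 against 10.07 to 10.18 in the other 7 pools. For the 10 genes described, values without pair 2 are therefore given beside results in which control pool 2 stood highest. For other genes they are given in part.

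Of the 7 measured genes 5 fell with adenosine, 0 rose and 2 did not pass the test, at an adjusted p under 0.05 in limma. At the same threshold 42.5% of the 12320 measured genes changed (20.8% fell and 21.7% rose), and 37.2% of the kept probes changed. Of the 7 genes, those short of the threshold also had an unadjusted p above 0.05. The genes that fell were SGK1, RGS2, PRKAR2B, CREM and PDE4B, by between 9.64-fold and 1.50-fold. The median log2 ratio of adenosine over control was -0.69 over the 7 genes and 0.0033 over all measured genes. SGK1 and RGS2 fell by over 4-fold, as did 2.12% of all measured genes. The levels of adenosine and control pools did not overlap for SGK1, RGS2, PRKAR2B and CREM, and 31.1% of all genes with a level in every pool had no overlap in either direction. SGK1, RGS2, PRKAR2B and the brighter PDE4B probe met the detection filter in both groups. CREM, CREB1 and PDE10A met it only through the control group, so for CREM the filter itself favoured a probe that was higher there. In pooled RNA, fewer cells of a type and less RNA of a gene per cell cannot be told apart.

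**Figure D1:**
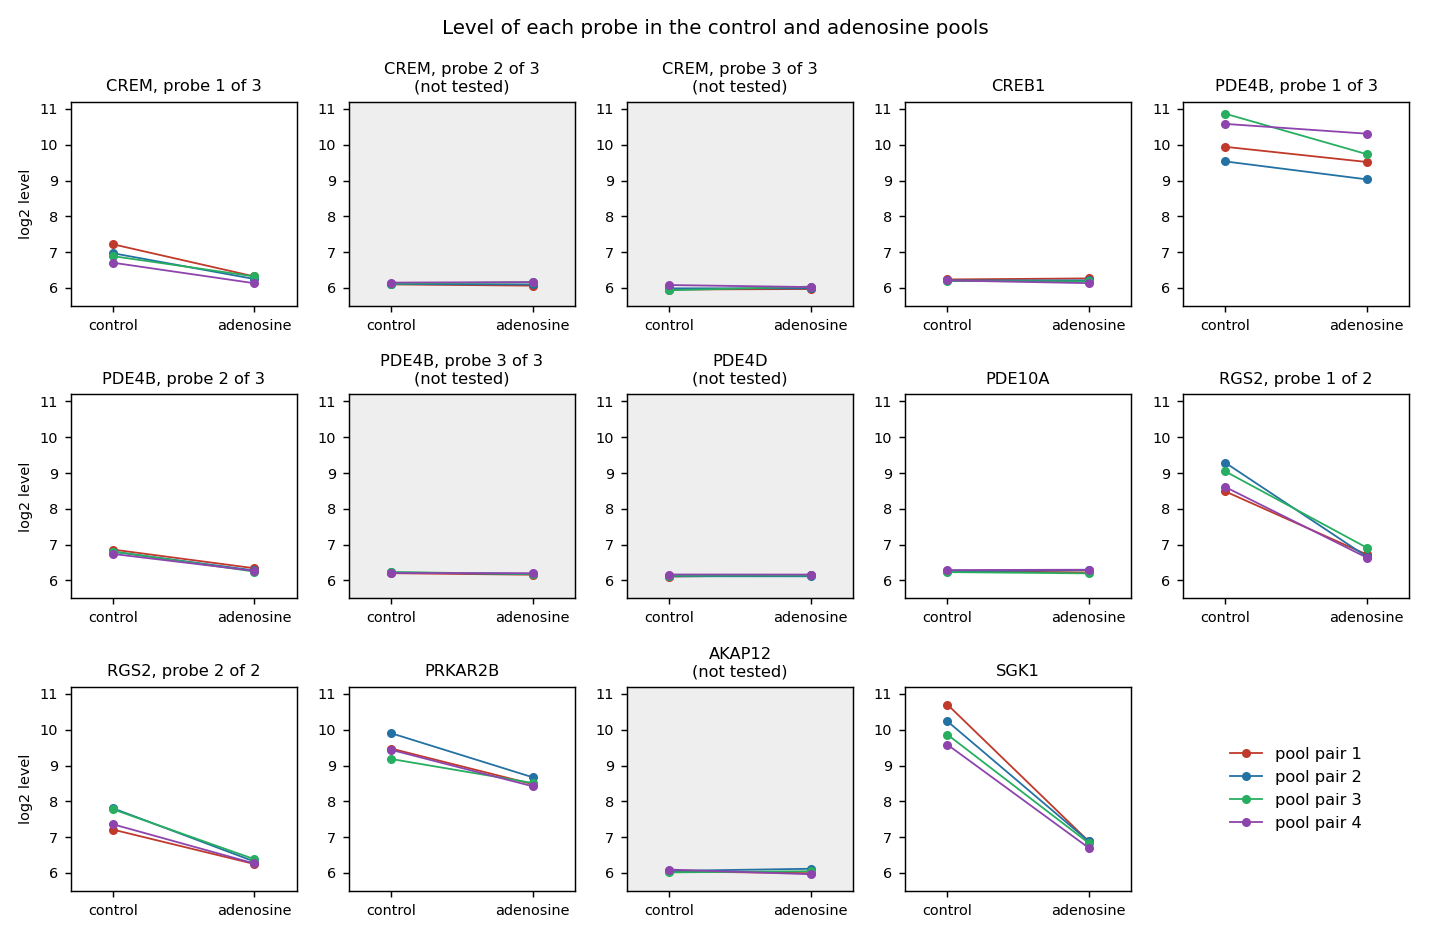
Log2 level of each of the 14 probes in each of 4 control and 4 adenosine pools (points, each the mean of 2 arrays). A line joins the control and adenosine pools of each pair, and shaded panels hold probes that were not tested. SGK1 stood at 9.59 to 10.70 in the control pools and at 6.70 to 6.89 in the adenosine pools, while CREB1 stood near 6.2 in both groups.

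CREM encodes activators and, from an internal promoter that cAMP induces, the ICER repressors that end cAMP-driven transcription. Its kept probe (EMBV3_32513) had log2 levels of 7.22, 6.97, 6.89 and 6.70 in control pools 1 to 4 and of 6.32, 6.25, 6.32 and 6.13 in adenosine pools 1 to 4. Every control pool was above every adenosine pool. The log2 ratio was -0.69 ± 0.16 (SD, n = 4 pool pairs, 95% confidence interval -0.87 to -0.51, limma adjusted p = 0.00351), a 1.61-fold lower level. The 4 pair ratios were -0.90, -0.72, -0.57 and -0.57, all of 1 sign.

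The probe was dim and entered the test through the control group alone, being detected on both arrays in 4 of 4 control and 2 of 4 adenosine pools. A stricter filter left it out. Its foreground was 1.33 to 2.85 times the detection level in the control channels and 0.775 to 1.31 times in the adenosine channels, and it passed that level in 8 of 8 control and 5 of 8 adenosine channel values. The offset of 50 added to every intensity pulls the ratios of such dim probes towards 0. With an offset of 0 the log2 ratio was -1.63 and in the authors' deposited values -1.09. Both other CREM probes were too dim to be tested, with log2 ratios of 0.0024 (EMBV3_03492) and 0.016 (EMBV3_34011), and the sources used here do not say which CREM transcripts each probe reads.

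CREB1, the factor that PKA phosphorylates directly, was not seen to change. Its log2 level (EMBV3_42497) was 6.24, 6.21, 6.19 and 6.21 in the control pools and 6.27, 6.21, 6.19 and 6.13 in the adenosine pools. The groups overlapped, and the log2 ratio was -0.013 ± 0.045 (SD, n = 4, interval -0.087 to 0.061, limma adjusted p = 0.753). The probe lay near the detection level in both groups, at 0.755 to 1.23 times that level in the adenosine channels. With an offset of 0 the interval widened to -0.25 to 0.20. The arrays with adenosine in Cy5 gave a mean of 0.12 and those with adenosine in Cy3 a mean of -0.15, so the estimate near 0 is the mean of opposite signs in the dye orientations.

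Among the other CREB family factors and coactivators 13 genes were measured, of which 1 fell, 1 rose and 11 did not pass the test, with a median log2 ratio of -0.018. The gene that fell was ATF1, which pairs with CREB1 and CREM at cAMP response elements, at -0.92 ± 0.07 (SD, n = 4, limma adjusted p = 0.000644). All 3 kept ATF1 probes fell, the other two by 0.60 and 0.49 on the log2 scale. CREB3L1, a membrane-bound factor released by proteolysis, rose by a log2 ratio of 0.19 ± 0.03 (SD, n = 4, limma adjusted p = 0.00601). The coactivator CREBBP was at -0.47 ± 0.47 (limma adjusted p = 0.14) and CREB3 at -0.32 ± 0.34 (limma adjusted p = 0.165), and neither passed the test. Without pair 1 CREB3 was at -0.15 and passed (limma adjusted p = 0.0334), as it did with an offset of 0 at -0.64 (limma adjusted p = 0.0322). CREBBP was at -0.30 without pair 2 and passed with median centring, at -0.81 (limma adjusted p = 0.0433).

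SIK1 belongs to the salt-inducible kinases, which phosphorylate the CRTC coactivators of CREB and are themselves phosphorylated by PKA. Both other members of the family fell. SIK3 had a log2 ratio of -1.20 ± 0.13 (SD, n = 4, limma adjusted p = 0.000913), and a second probe gave -1.20 while the dimmest kept probe stood at -0.017 and did not pass. SIK2 had a log2 ratio of -0.48 ± 0.15 (SD, n = 4, limma adjusted p = 0.00764), with a second probe at -0.14 that also passed.

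PDE4B encodes a cAMP-specific phosphodiesterase whose transcription cAMP itself raises in many cells. Its brightest probe (EMBV3_08844) had log2 levels of 9.94, 9.53, 10.87 and 10.58 in control pools 1 to 4 and of 9.52, 9.03, 9.74 and 10.31 in adenosine pools 1 to 4. The groups overlapped, since pools differed more between pairs than between treatments, but each adenosine pool was below its own control pool. The pair log2 ratios were -0.42, -0.50, -1.13 and -0.27, with a mean of -0.58 ± 0.38 (SD, n = 4, interval -1.01 to -0.16, limma adjusted p = 0.0497).

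That call was the closest of the 5 to the threshold. It was lost when pair 1, pair 2 or pair 4 was left out (limma adjusted p of 0.105, 0.122 and 0.0893), in the authors' deposited values (limma adjusted p = 0.0712), and when pools were compared without pairing (limma adjusted p = 0.33). Without pair 3 the log2 ratio was -0.40 and the call held. With median centring in place of loess it was -0.94.

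A second PDE4B probe (EMBV3_00980) was dimmer and far more even between pools. Its foreground was 1.21 to 1.99 times the detection level in the control channels and only 0.709 to 1.23 times in the adenosine channels. The probe was detected on both arrays in 4 of 4 control and 2 of 4 adenosine pools, so it too met the filter only through the control group. It stood at log2 levels of 6.86, 6.80, 6.81 and 6.74 in the control pools and 6.34, 6.28, 6.25 and 6.27 in the adenosine pools, without overlap. Its log2 ratio was -0.52 ± 0.04 (SD, n = 4, limma adjusted p = 0.000886). It passed under each of the 14 alternatives that gave it a value. These leave out the stricter filter, which dropped the probe, and include the fit with the replicate block, which repeats the main values. Since the filter favoured a probe higher in the control group, these passes are no independent support for the call of the brighter probe. With an offset of 0 the log2 ratio of the dimmer probe was -1.26. The third probe (EMBV3_19443) was too dim to be tested, with a log2 ratio of -0.038.

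The brighter PDE4B probe varied over pools with PTPRC, the leukocyte surface phosphatase CD45. PTPRC stood at log2 levels of 8.66, 7.71, 10.44 and 10.18 in control pools 1 to 4 and of 8.58, 7.88, 9.62 and 9.97 in adenosine pools 1 to 4. Within each group both probes were lower in pool 2 than in any other and higher in pools 3 and 4 than in pools 1 and 2. The log2 ratio of PTPRC was -0.24 (limma adjusted p = 0.36), and of 8 immune and blood markers 6 passed the filter, and the log2 of the summed level of all 8 was 9.61 to 10.60 in the adenosine pools and 9.64 to 10.94 in the control pools. Of these only CD68 passed the test, at -0.56 (limma adjusted p = 0.0113). CD68 did not follow the pool order of PTPRC, at log2 levels of 7.25, 7.01, 6.88 and 6.72 in control pools 1 to 4. In adenosine pools 1 to 4 it stood at 6.45, 6.42, 6.34 and 6.42. CD163, CD3E, CD14 and HBB stayed at 6.03 to 6.39 in all pools, HBA at 6.50 to 6.96, and TYROBP was detected on no array. The likeness in pool order described here is to PTPRC alone. The part of leukocyte RNA in the PDE4B result was not tested.

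**Figure D2:**
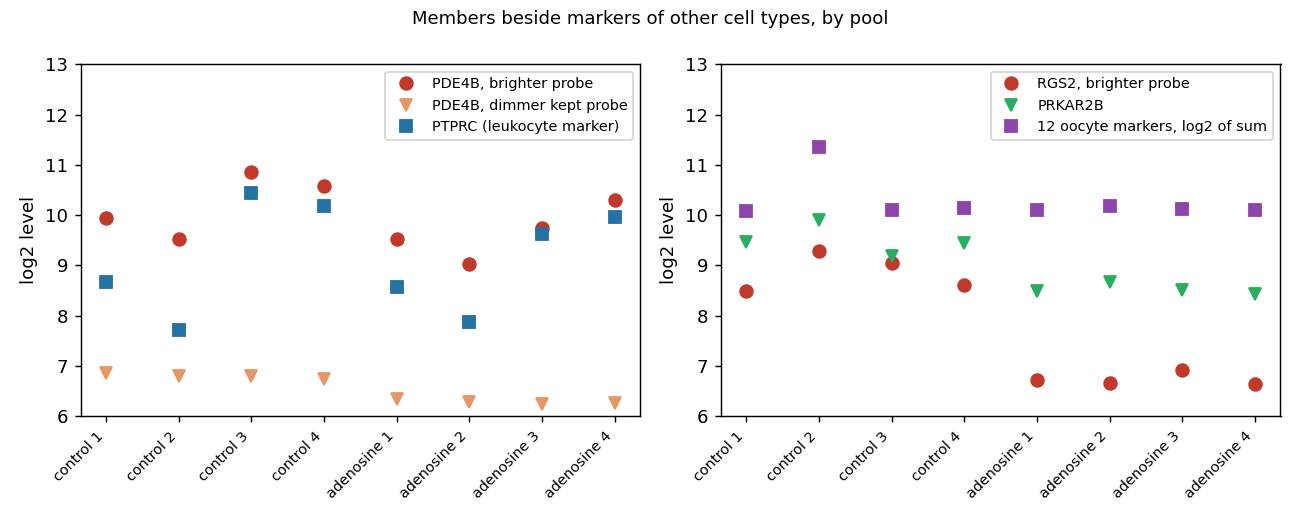
Log2 levels by pool (points) of both kept PDE4B probes with the leukocyte marker PTPRC (left), and of RGS2 and PRKAR2B with the log2 of the summed levels of 12 oocyte markers (right). The brighter PDE4B probe and PTPRC were lowest in pool 2 of each group, and the oocyte markers stood at 11.36 in control pool 2 against 10.07 to 10.18 in the other 7 pools.

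PDE4D, a close relative of PDE4B, could not be assessed. Its probe (EMBV3_01449) passed the detection level in 3 of 8 adenosine and 4 of 8 control channel values, with mean log2 levels of 6.14 and 6.13. PDE10A, which degrades both cAMP and cGMP and is best known from the striatum of the brain, was kept but dim (EMBV3_04417), and it stood at log2 levels of 6.23 to 6.29 in the control pools and 6.20 to 6.30 in the adenosine pools. The groups overlapped and the log2 ratio was -0.0093 ± 0.035 (SD, n = 4, interval -0.076 to 0.058, limma adjusted p = 0.801). With an offset of 0 the interval was -0.25 to 0.14, so at this brightness a change within that range could not be told from 0.

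Of 14 other phosphodiesterases measured, 1 fell, 1 rose and 12 did not pass the test, with a median log2 ratio of 0.018. PDE8A, a cAMP-specific enzyme, fell by 1.10 ± 0.38 on the log2 scale (SD, n = 4, limma adjusted p = 0.00878), while its second kept probe stood at -0.062 and did not pass. PDE6D, named for a photoreceptor enzyme but known as a carrier of prenylated proteins, rose by 0.67 ± 0.29 on the log2 scale (SD, n = 4, limma adjusted p = 0.0163). Neither call held without pair 4, when 0 of the 14 passed in limma and 4 had an unadjusted p under 0.05, and PDE6D was also lost without pair 3, when 1 passed. PDE3B was at 0.15 ± 0.09 (limma adjusted p = 0.0587) and PDE7B at 0.10 ± 0.05 (limma adjusted p = 0.0592), both short of the threshold. With an offset of 0 both passed, at 0.32 and 0.33 (limma adjusted p of 0.0343 and 0.0236). Both also passed with adenosine in Cy5 alone (limma adjusted p of 0.00688 and 0.00813). With adenosine in Cy3 alone neither passed, at 0.075 and -0.019. PDE7B also passed without background correction and with median centring (limma adjusted p of 0.0411 and 0.0272).

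RGS2 speeds the hydrolysis of GTP on G protein alpha subunits, chiefly of the Gq class, and also binds adenylyl cyclase. Its brighter probe (EMBV3_30082) had log2 levels of 8.49, 9.29, 9.04 and 8.61 in control pools 1 to 4 and of 6.73, 6.67, 6.92 and 6.64 in adenosine pools 1 to 4. The adenosine pools lay close together and all below the control pools. In the adenosine channels the foreground was only 1.22 to 1.69 times the detection level, against 6.12 to 13.4 times in the control channels. The log2 ratio was -2.12 ± 0.37 (SD, n = 4, interval -2.53 to -1.70, limma adjusted p = 0.00182), a 4.34-fold lower level, and the pair ratios were -1.76, -2.62, -2.13 and -1.97.

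The second RGS2 probe (EMBV3_25468) fell as well, at -1.23 ± 0.25 (SD, n = 4, limma adjusted p = 0.00253), and it was the dimmer of the pair. Its adenosine channels stood at 0.850 to 1.18 times the detection level and its control channels at 2.36 to 4.34 times. With an offset of 0 the log2 ratios were -3.11 and -2.40, so the size of the fall depended on the background correction while its direction did not. The largest pair ratio was that of pair 2, whose control pool carried the oocyte markers. Without pair 2 the brighter probe stood at -1.95 and the dimmer at -1.15.

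The 14 other RGS proteins measured gave 3 that fell, 2 that rose and 9 that did not pass, with a median log2 ratio of -0.011. RGS4, which acts on Gi and Gq alpha subunits, fell further than RGS2, at -3.64 ± 0.52 (SD, n = 4, limma adjusted p = 0.00126). Its other kept probes stood at -3.64 and -2.19. With adenosine both genes were dim, at mean log2 levels of 6.60 (RGS4) and 6.74 (RGS2). In the control pools they stood at 10.24 and 8.86. The brightest RGS4 probe passed the detection level in 7 of 8 adenosine channel values, and a stricter filter left it out. Without pair 2 this probe gave a log2 ratio of -3.42. RGS7 fell by 0.68 ± 0.11 on the log2 scale (SD, n = 4, limma adjusted p = 0.00175). RGS17 fell by 0.29 ± 0.05 (SD, n = 4, limma adjusted p = 0.00395) on the same scale. RGS22 rose by 0.36 ± 0.18 (SD, n = 4, limma adjusted p = 0.0267), and RGS6, named because it completes the count, rose by 0.20 ± 0.10 (SD, n = 4, limma adjusted p = 0.0344). The RGS22 call was lost without pair 1, pair 3 or pair 4 (limma adjusted p of 0.0798, 0.084 and 0.11), and the calls of RGS22 and RGS17 when pools were compared without pairing. Only 3 of the 14 passed without pair 1 and 3 without pair 3, and 2 when pools were compared without pairing.

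**Figure D3:**
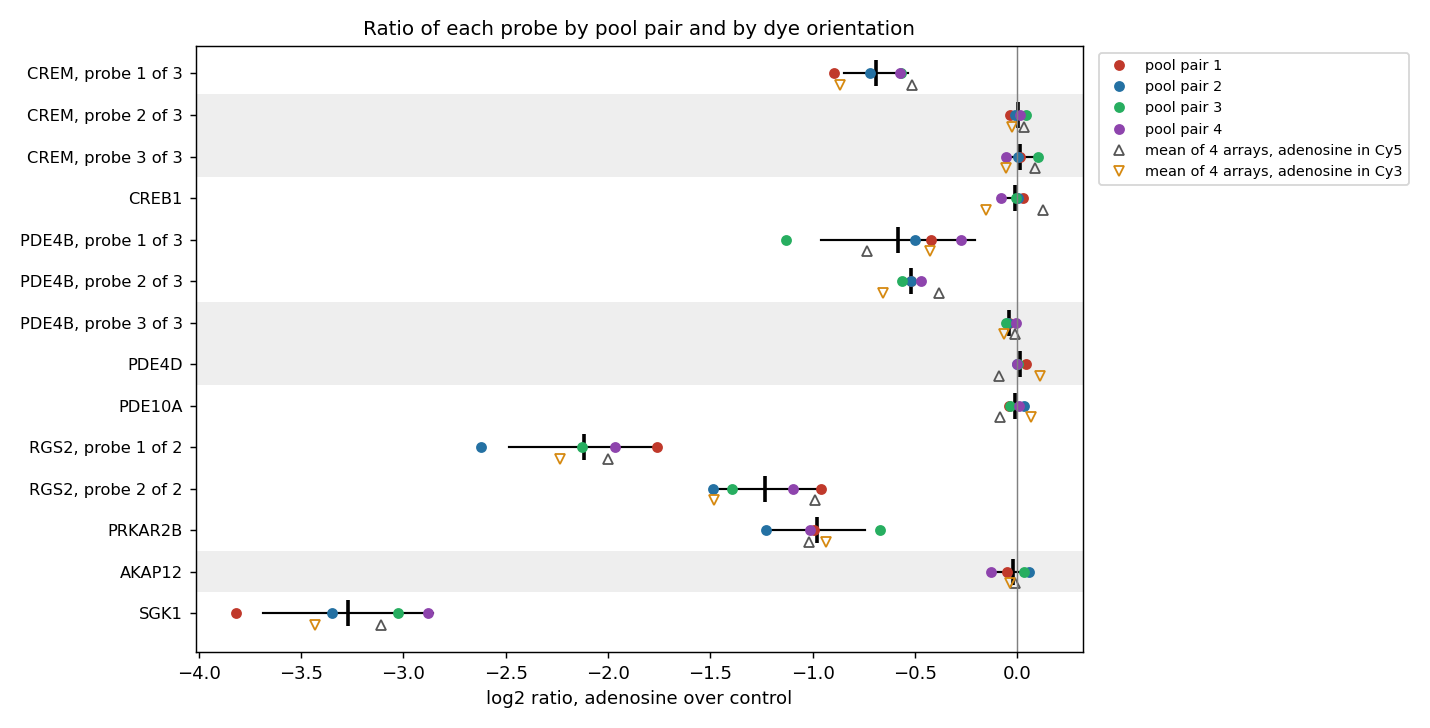
Log2 ratio of adenosine over control for each of the 14 probes in each pool pair (points), with the mean (vertical bar), the SD between the 4 pairs (horizontal line) and the mean of each dye orientation (triangles). Shaded probes did not pass the detection filter. The probes that passed the test lay below 0 in all 4 pairs, and the pairs of the brighter PDE4B probe ran from -1.13 to -0.27.

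PRKAR2B encodes the RII-beta regulatory subunit of PKA, the subunit type that most AKAPs bind, and it is induced by FSH in rat granulosa cells. Its probe (EMBV3_22891) had log2 levels of 9.47, 9.90, 9.18 and 9.44 in control pools 1 to 4 and of 8.48, 8.67, 8.51 and 8.42 in adenosine pools 1 to 4. The groups did not overlap, and all 8 channel values of each group passed the detection level. The log2 ratio was -0.98 ± 0.23 (SD, n = 4, interval -1.24 to -0.71, limma adjusted p = 0.00366), a 1.97-fold lower level.

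PRKAR2B was bright enough for the background correction to matter little, and the log2 ratio was -1.18 with an offset of 0. The arrays that carried adenosine in Cy5 gave -1.02 and those of the other orientation -0.93. Without pair 2, whose control pool stood highest for this gene also, the log2 ratio was -0.89.

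Of 5 other genes for PKA subunits and inhibitors measured, 2 fell, 0 rose and 3 did not pass, with a median log2 ratio of 0.032, and at an unadjusted p under 0.05 limma also gave 2 and 0. Both PKA catalytic subunit genes listed, PRKACA and PRKACB, were among the 5 that did not pass the detection filter. PKIB, an inhibitor that binds the catalytic subunits, fell by 1.10 ± 0.19 on the log2 scale (SD, n = 4, limma adjusted p = 0.00187), with a second probe at -1.22. PRKAR1A, a type I regulatory subunit, fell by 0.74 ± 0.40 (SD, n = 4, limma adjusted p = 0.0304), a call that was lost without pair 2 and without pair 3, which in the latter case left 1 of the 5. PKIA, another inhibitor, was at 0.57 ± 0.62 (limma adjusted p = 0.167) and PRKAR2A, the other type II subunit, at 0.056 ± 0.074 (limma adjusted p = 0.302). Neither passed the test, but without pair 2 PKIA was at 0.86 and passed (limma adjusted p = 0.0254), and without pair 3 it was at 0.36.

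AKAP12, a scaffold that binds PKA together with protein kinase C, passed the detection level in 1 of 8 adenosine and 0 of 8 control channel values (EMBV3_06229). Its foreground was 0.612 to 1.02 times that level over both groups, so its ratio, shown only in the plot of ratios by pool pair, was not tested. Other anchoring proteins could be read, and of 10 measured 5 fell, 0 rose and 5 did not pass, with a median log2 ratio of -0.46. At an unadjusted p under 0.05 limma gave 7 that were lower and 1 that was higher.

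AKAP7, a small membrane-bound anchoring protein, had the largest fall, at -3.61 ± 0.39 (SD, n = 4, limma adjusted p = 0.000779), and its other kept probes stood at -2.54 and at 0.024, the latter without passing. AKAP4, best known from the sperm tail, had a log2 ratio of -1.09 ± 0.23 (SD, n = 4, limma adjusted p = 0.00293). AKAP8, a nuclear anchoring protein, was at -1.08 ± 0.30 (SD, n = 4, limma adjusted p = 0.00519), with further probes at -0.50 and -0.11, the last not passing. AKAP10, a mitochondrial anchoring protein, was at -0.84 ± 0.21 (SD, n = 4, limma adjusted p = 0.00424). AKAP1, also mitochondrial and named because it completes the count, was at -1.01 ± 0.32 (SD, n = 4, limma adjusted p = 0.00707). With any 1 pair left out 5 of the 10 passed. Without pair 2 AKAP8 was at -0.95, AKAP10 at -0.73, AKAP7 at -3.53 and AKAP4 at -1.17.

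**Figure D4:**
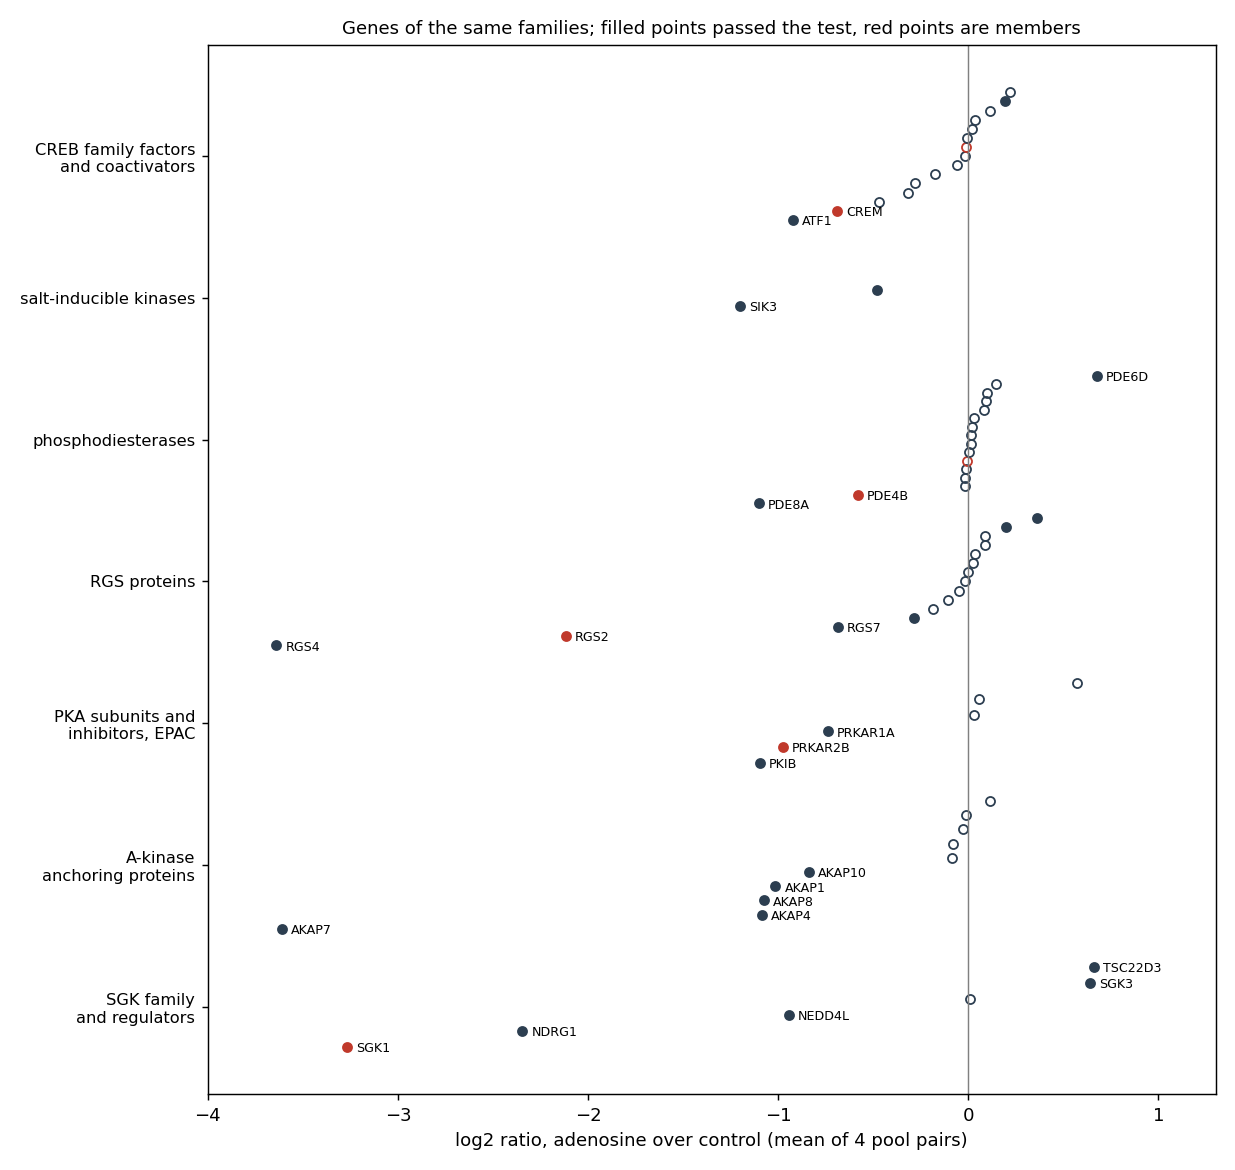
Log2 ratio of adenosine over control (mean of 4 pool pairs) for the measured genes of each family, with filled points for those that passed the test at an adjusted p under 0.05 and red points for the 7 genes described. The anchoring proteins held 5 genes that fell and 0 that rose, and most phosphodiesterases lay near 0.

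SGK1, a kinase of the AGC family whose transcription serum, glucocorticoids and, in rat granulosa cells, FSH raise, fell furthest of the 7 genes. Its probe (EMBV3_36259) had log2 levels of 10.70, 10.24, 9.87 and 9.59 in control pools 1 to 4 and of 6.89, 6.89, 6.84 and 6.70 in adenosine pools 1 to 4. The control pools spread over more than 1 log2 unit and the adenosine pools were nearly level, with no overlap. The log2 ratio was -3.27 ± 0.42 (SD, n = 4, interval -3.74 to -2.80, limma adjusted p = 0.00103), a 9.64-fold lower level.

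All 8 adenosine channel values passed the detection level, but only at 1.25 to 1.82 times it, against 11.9 to 43.1 times in the control channels. The fold is thus compressed by the offset, and with an offset of 0 the log2 ratio was -4.33. The pair ratios were -3.82, -3.35, -3.03 and -2.88, and the arrays that carried adenosine in Cy5 gave -3.11 and those of the other orientation -3.43.

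Of 5 other genes of the SGK family and its regulators and substrates, 2 fell, 2 rose and 1 did not pass, with a median log2 ratio of 0.0073. NDRG1, a substrate of SGK1 and also a gene raised by hypoxia, fell by 2.35 ± 0.25 on the log2 scale (SD, n = 4, limma adjusted p = 0.000765). NEDD4L, a ubiquitin ligase that SGK1 phosphorylates, fell by 0.94 ± 0.44 (SD, n = 4, limma adjusted p = 0.0197), a call lost without pair 2 and without pair 3. TSC22D3, a glucocorticoid-induced gene also known as GILZ, rose by 0.66 ± 0.16 on the log2 scale (SD, n = 4, limma adjusted p = 0.00404). SGK3 rose by 0.64 ± 0.29 (SD, n = 4, limma adjusted p = 0.0185), a call lost without pair 1 and without pair 4, and its other probes stood at 0.039 and 0.032.

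The genes most like each member were those whose 4 pair log2 ratios had the smallest root mean square difference from its own, over all other named genes measured. For SGK1 they were MAP1LC3C, at a difference of 0.125, and CYP3A5, at 0.163, and 3 genes lay within 0.25. For RGS2 they were RAP1B at 0.168 and SYVN1 at 0.173, with 13 genes within 0.25. Among the measured members, SGK1 and RGS2 had the fewest such genes.

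PDE4B, whose lowest ratio was that of pair 3, was nearest to TOP1 at 0.0911 and AGTR2 at 0.0969, with 47 genes within 0.25. PRKAR2B was nearest to ZCCHC10 at 0.0376 and KCTD12 at 0.0572, with 263 genes within 0.25. CREM was nearest to GAPVD1 at 0.00324 and ZNF154 at 0.0529, with 396 genes within 0.25. CREB1 and PDE10A, both near 0, had 5681 and 5722 such genes, the nearest being CASP14 and SCLY.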

How the data were processed

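Per the labels' protocols, cumulus RNA went through 2 T7 amplification rounds before chemical coupling to Cy3 or Cy5. Such amplification can favour transcript 3′ ends, and probe positions were not used here. The deposited scanner files hold mean foreground and median background intensity per spot at 532 and 635 nm, per the file headers, and these were taken as Cy3 and Cy5. The authors' deposited value table holds log2 ratios of adenosine over control, as a comparison with the scanner values showed, and the sources used here do not say how they were normalized and centred.

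Intensities were corrected with normexp (offset 50) and loess, with limma 3.58.1 (R 4.3.3), control spots carrying weight 0 in the loess. A probe was kept when it exceeded the mean plus 2 SD of 153 negative spots in both arrays of at least 3 of 4 pools of either group. Turned ratios were averaged per pool pair and tested against 0 with lmFit and eBayes, adjusted by Benjamini-Hochberg over 31948 probes. Same-numbered arrays hold the same pools by the labels, and their deviations correlated at 0.784 to 0.933 across probes. Each slide held 1 dye orientation, so slide and orientation cannot be told apart. Levels are single-channel log2 values after loess and Aquantile scaling. The brightest kept probe stood for each gene.

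Members and lists were chosen with earlier results of these data known, so their counts are no independent evidence. Genes named are all members, up to 4 genes of each family with the smallest p, and the 2 genes most like each measured member. The second nearest genes to CREB1 and PDE10A are not named in the text. RefSeq's gene table held all 10 member symbols. The fit to pair ratios was tested on simulated ratios with known changes. That simulation did not cover background correction, loess, dye effects or the detection filter.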

Additional observations from a re-analysis of the deposited data

Results flagged for a closer look

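For 3 dim probes every array of one dye orientation had the opposite sign to every array of the other. CREB1 had a mean log2 ratio of 0.12 with adenosine in Cy5 and of -0.15 with adenosine in Cy3. PDE10A had means of -0.086 and 0.067, and PDE4D, whose probe was not tested, of -0.090 and 0.11. These differences between orientations were not tested, and their means over both orientations were near 0. For PDE4D the log2 ratio of pool pair 1, at 0.044, also stood apart from those of the other pairs, which lay between -0.0018 and 0.0048. It was the only such value in 42 groups of 4 examined, where chance gives about 1 in 20.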

How the results depend on the processing

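SGK1, RGS2, PRKAR2B and CREM fell in each of the alternatives that gave them a value, with log2 ratios of -4.33 to -3.09, -3.11 to -1.68, -1.32 to -0.89 and -1.63 to -0.51. Of the 7 genes 4 or 5 fell and 0 rose in limma in each of 16 alternatives, and a stricter detection filter left 4 measured, all of which fell. PDE4B was no longer called in the authors' table (-0.44), without the detection filter (-0.58), from arrays with adenosine in Cy3 alone (-0.43), or with pair 3 from its Cy5 array (-0.65), and leaving out 1 pair gave -0.68 to -0.40. CREB1 changed sign without background correction (0.0021), with median centring (0.031), with adenosine in Cy5 alone (0.12) and with pair 3 from its Cy5 array (0.030), ranged from -0.027 to 0.0084 when 1 pair was left out, and passed the test with adenosine in Cy3 alone (-0.15, limma adjusted p = 0.0188). PDE10A changed sign with median centring (0.026) and with adenosine in Cy3 alone (0.067), and ranged from -0.023 to 0.0017 when 1 pair was left out. Signs also turned for PRKAR2A with adenosine in Cy5 alone (-0.050) and PDE7B with adenosine in Cy3 alone (-0.019). The cause of these changes was not tested.

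A fit of single-channel values with the replicate block called 11876 probes, as did the pair means, since both compare the same pools, and it changed no call. With no replicate block 7510 probes and 4 of the 7 genes were called, and PDE4B stood at -0.58 without passing. Leaving out 1 pair gave 6593 to 9696 probes, the lowest without pair 4. The 11876 probes split into 5974 higher and 5902 lower, and with median centring into 4727 and 7525, with a median shift of -0.036. Family counts outside the 7 genes moved by over 1.5 times for phosphodiesterases, from 2 to 5 with an offset of 0 or adenosine in Cy5 alone and to 0 to 2 with 1 pair left out. Anchoring proteins went from 5 to 8 with an offset of 0. CREB family genes went from 2 to 4 with median centring or adenosine in Cy3 alone, to 1 with a stricter filter, and to 2 to 3 with 1 pair left out. RGS proteins went from 5 to 2 with a stricter filter or no replicate block and to 3 to 5 with 1 pair left out, PKA genes from 2 to 1 with a stricter filter and to 1 to 2 with 1 pair left out, and SGK-related genes from 4 to 2 with a stricter filter. That filter left fewer genes measured, namely 7 of 13 CREB family genes, 4 of 14 RGS proteins, 2 of 5 PKA genes and 2 of 5 SGK-related genes. Of 406 values of the other 26 family genes named by rule, 378 kept direction and side of the threshold. The alternatives counted, here and for the 7 genes, include the fit with the replicate block, whose values repeat the main ones. They also include changed detection filters, which leave each log2 ratio as it was. Among the members, signal over background limits CREM, CREB1, PDE10A, PDE4D and AKAP12 most, and in the adenosine channels also SGK1, RGS2 and the dimmer kept PDE4B probe.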

Other observations

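Control pool 2 had the highest levels of several oocyte markers. DPPA3 stood at a log2 level of 9.20 there and at 6.03 to 6.19 in the other 7 pools, FIGLA at 8.90 against 6.71 to 7.01, and ZP4 at 8.45 against 6.28 to 6.62. BMP15 differed far less, at 7.04 there and 6.79 to 7.02 elsewhere. MOS stood at 6.95 in that pool, within its range of 6.80 to 7.09 elsewhere.

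Among markers of the cumulus and granulosa lineage, FSHR rose by 0.72 on the log2 scale (limma adjusted p = 0.0147) and INHA by 0.91 (limma adjusted p = 0.00323), while INHBA, the activin beta A subunit, fell by 0.98 (limma adjusted p = 0.00155). The INHBA value is the mean of -0.031 where Cy5 labelled the adenosine pool and -1.93 where Cy3 did, so 1 orientation carried the fall, and the probe was brighter than nearly all others. AMH, HSD17B1 and FST also rose, by 0.47 to 0.57, and the other 4 markers, among them CYP19A1 at -0.31 (limma adjusted p = 0.211), did not pass the test.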
